A study of Mus musculus with 6 samples.

Results

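The replication-dependent histone genes were followed through RNA sequencing of the mouse incisor, class by class. Members were all genes of the deposited table whose symbol begins with Hist1h, Hist2h, Hist3h or Hist4h, and 66 of 23718 listed genes met this rule. They comprised 6 H1, 18 H2A, 18 H2B, 11 H3 and 13 H4 genes, of which 64 were annotated as protein coding and 2, Hist1h2al and Hist3h2bb-ps, as processed pseudogenes. In the mouse genome (mm10) 53 had Hist1 symbols and lay on chromosome 13, all but Hist1h2al in the Hist1 cluster. Of the others, 9 belonged to the Hist2 cluster on chromosome 3, 3 to the Hist3 cluster on chromosome 11, and Hist4h4 lay alone on chromosome 6.

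Regions of incisors from mice aged 1 month were collected by laser capture microdissection. The labels give the strain as C57BL/6, whereas the methods of the study speak of a mixed background. Mesenchymal stem cell (MSC) samples came from Gli1-CreER;tdT mice and transit amplifying cell (TAC) samples from Axin2-CreER;tdT mice, with 3 samples per group. Both groups carried the tdTomato reporter and had received tamoxifen 1 day before, and the labels name no further allele. The driver marked the region to be captured and did not sort a pure population, so neighbouring cells can be present. Samples were numbered 1 to 3 within each group, the methods speak of 3 mice per group, and p-values measure the spread between these samples.

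Histone H2A, H2B, H3 and H4 proteins form the core of the nucleosome, and H1 binds the linker DNA between nucleosomes. Most of their genes are intronless, clustered and expressed during S phase, when new DNA must be packaged. Their mRNAs usually end in a conserved stem-loop in place of a poly(A) tail, and this structure is bound by the stem-loop binding protein encoded by Slbp. A smaller set of histone genes outside these clusters, such as H2afz or H3f3a, is expressed outside S phase and gives polyadenylated mRNA.

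The stem-loop and the promoter letters show what the members share apart from their names. A search of GENCODE M21 transcripts with the histone stem-loop consensus matched 45 of the 66 histone genes (68.2%) and 24 of 22376 other listed genes (0.107%). Matches after the stop codon are shown for members of each class, with the 16 bases of the stem and loop in capitals, on the coding strand.

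Hist1h1c, chr13:23739507-23739532, plus strand: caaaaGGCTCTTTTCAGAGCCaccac
Hist3h2a, chr11:58955167-58955192, plus strand: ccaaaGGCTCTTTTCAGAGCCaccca
Hist1h2bj, chr13:22043633-22043658, plus strand: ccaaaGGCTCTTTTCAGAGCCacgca
Hist1h3b, chr13:23752815-23752840, plus strand: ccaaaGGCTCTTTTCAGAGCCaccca
Hist1h4d, chr13:23581945-23581970, plus strand: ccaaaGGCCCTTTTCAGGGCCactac
Hist1h4i, chr13:22040961-22040986, minus strand: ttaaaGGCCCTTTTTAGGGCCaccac

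The H1, H2A, H2B and H3 members shown carry the same capital letters, and both H4 members differ from them within the stem. For Hist1h2bc and Hist2h2be, described below, the annotated transcripts held no match. A match describes these letters and is not a measured processing site.

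Of the 66 members, 59 were matched to an entry of the RefSeq promoter table (GRCm38.p6), and the 250 bases before each start were searched on both strands for 4 short motifs. The CCAAT box (CCAAT) was present in 49 of 59 histone promoters (83.1%) against 34.5% of all promoters in the table, and the TATA box (TATAAA) in 27 (45.8%) against 13%. The octamer (ATTTGCAT) was present in 11 (18.6%) against 1.61%, in 6 of 17 H2A and 5 of 15 H2B promoters and in no H1, H3 or H4 promoter. The H1 box (AAACACA) was present in 5 of 6 H1 promoters, and in 6.22% of all promoters. Of the H4 promoters, 3 of 12 held a CCAAT box, whereas all 6 H1, 17 H2A and 15 H2B promoters did. The 150 bases before the start are shown for an H1, an H2B, an H3 and an H4 gene, with matches in capitals.

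Hist1h1c, chr13:23738657-23738806, plus strand: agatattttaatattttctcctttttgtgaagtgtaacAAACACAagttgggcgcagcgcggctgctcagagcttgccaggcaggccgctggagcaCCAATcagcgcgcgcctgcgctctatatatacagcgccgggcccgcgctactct
Hist1h2bk, chr13:22035671-22035820, plus strand: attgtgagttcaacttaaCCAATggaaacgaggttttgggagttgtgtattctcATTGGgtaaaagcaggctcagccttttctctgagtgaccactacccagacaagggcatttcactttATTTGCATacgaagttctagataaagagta
Hist2h3b, chr3:96268504-96268653, plus strand: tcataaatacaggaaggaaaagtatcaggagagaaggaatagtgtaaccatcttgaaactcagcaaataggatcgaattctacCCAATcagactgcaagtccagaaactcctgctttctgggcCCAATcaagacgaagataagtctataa
Hist1h4d, chr13:23581418-23581567, plus strand: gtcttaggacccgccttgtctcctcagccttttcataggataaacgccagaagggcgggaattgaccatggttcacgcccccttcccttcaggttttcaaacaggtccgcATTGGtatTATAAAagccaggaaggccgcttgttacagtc

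The H1 promoter shows the H1 box and a CCAAT box, the H2B promoter the octamer close to the start, the H3 promoter a pair of CCAAT boxes, and the H4 promoter the TATA box with an inverted CCAAT box. No match says only that the letters are not in the window.

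Replicate 3 of each group stood apart from the other libraries. Estimated reads, obtained by dividing each deposited value by the smallest one in that library and subtracting 1, numbered 20203159 to 25567244 in replicates 1 and 2, 59793645 in MSC replicate 3 and 108156380 in TAC replicate 3. Mitochondrial ribosomal RNA made up between 8.28% and 9.07% of these in the former and 0.112% to 0.236% in the latter, and 43.1% and 28.3% of listed genes had no read in MSC and TAC replicate 3 against 6.89% to 8.36% elsewhere. Mki67, a marker of dividing cells, had values of 137, 130 and 41.5 in MSC and 593, 630 and 122 in TAC replicates 1 to 3. Gli1 had values of 256, 245 and 422 in MSC and 153, 141 and 396 in TAC, and Axin2, at 58.3, 48.0 and 12 in MSC and 56.8, 63.9 and 34.1 in TAC, did not separate the groups (limma, adjusted p = 0.117 in replicates 1 and 2). Because most histone genes had no read in replicate 3, the histone comparison is given first in replicates 1 and 2 and then with replicate 3. That choice rests on the histone values themselves.

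In replicates 1 and 2, histone mRNA was several-fold higher in TAC than in MSC, in every class. The summed normalized values of the 66 genes were 844 and 883 in the MSC samples and 3699 and 3827 in the TAC samples, so both TAC libraries lay far above both MSC libraries. The ratio of TAC to MSC was 4.38 in replicate 1 and 4.34 in replicate 2. As a share of all estimated reads, histone genes took 0.144% and 0.150% in MSC against 0.661% and 0.674% in TAC. In bulk tissue, more histone-expressing cells and more histone RNA per cell cannot be told apart.

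Gene by gene, 60 members had a mean value of at least 1 and were tested with limma on log2(value + 1), and 59 of them were higher in TAC with a Benjamini-Hochberg adjusted p under 0.05. Over all 15680 genes tested in these 4 libraries, 47.4% were called, 21.4% as higher in TAC and 26% as lower. No histone gene was called lower. The median log2 fold change of the 60 genes was 2.10 against -0.053 over all genes, and the 5th and 95th percentiles over all genes were -1.38 and 1.06. Both TAC values exceeded both MSC values for 59 of the 60, against 33.1% of all genes tested. As ratios of the mean values, the 60 genes ranged from 0.776 to 13.1 with a median of 4.66. Hist1h2al and Hist1h4n, the latter with the highest ratio, had an MSC mean under 1 and were tested only through their TAC values. These counts rest on 2 samples per group, with the spread borrowed across genes.

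**Figure D1:**
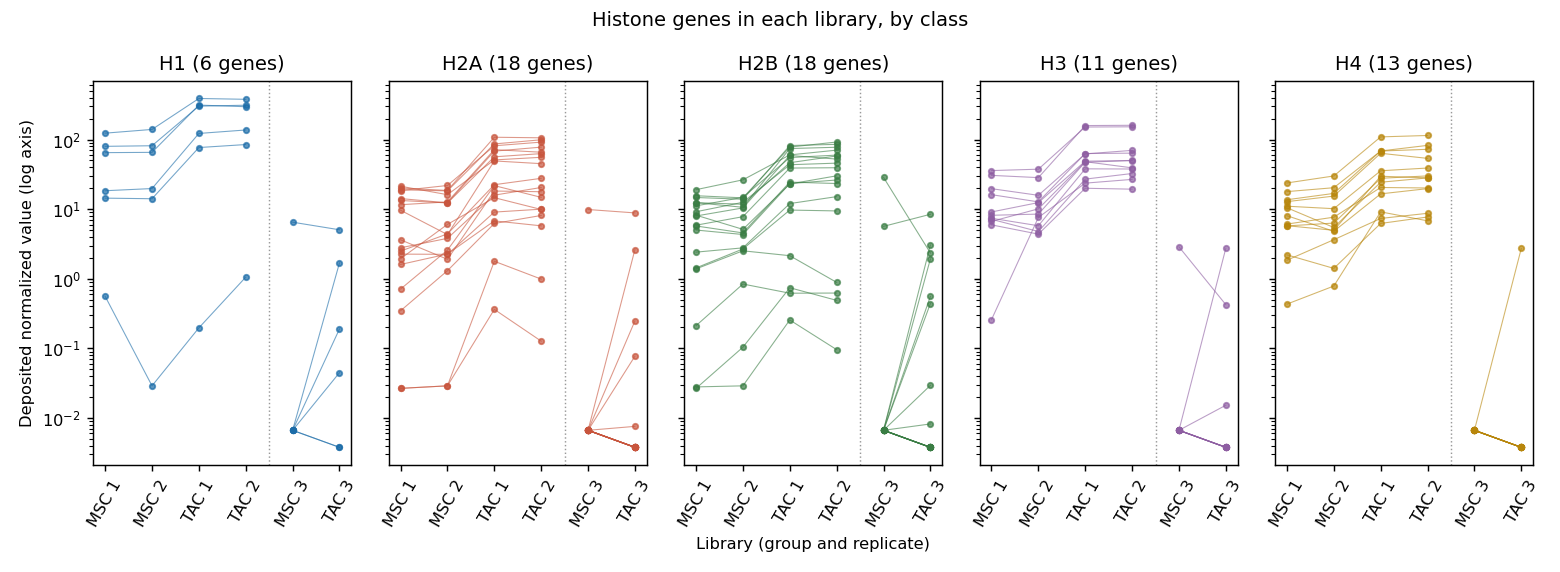
Deposited normalized value (log axis) of each of the 66 histone genes in each library, in 1 panel per class; a point is a gene in a library, lines join the same gene, and the dotted line separates replicates 1 and 2 from replicate 3. In every class the points of TAC replicates 1 and 2 lie above those of MSC replicates 1 and 2 for nearly all genes. In replicate 3 most genes sit at the value that means no read, except that 4 of the 6 H1 genes had reads in TAC.

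The linker histones of class H1 were measured with the most distinct sequences. Their summed values were 301 and 320 in MSC and 1202 and 1208 in TAC, a ratio of 3.88. All 5 tested H1 genes rose, with log2 fold changes from 1.54 to 2.70 and a median of 2.21. Hist1h1a, a somatic linker histone, had values of 18.4 and 19.8 in MSC and 122 and 137 in TAC, the steepest change of the class (log2 fold change 2.70 ± 0.092 SE, limma adjusted p = 9.66e-18). Hist1h1b, another somatic linker histone, had 14.4 and 14.1 in MSC and 76.7 and 84.7 in TAC. For both genes the TAC values lay several times above the MSC values. Hist1h1d had values of 64.8 and 65.4 in MSC and 312 and 296 in TAC, with the smallest adjusted p of any histone gene (log2 fold change 2.21 ± 0.058 SE, limma adjusted p = 7.19e-20). Hist1h1e had 79.8 and 81.4 in MSC and 302 and 311 in TAC. The annotated transcripts of Hist1h1c, Hist1h1d and Hist1h1e run 880, 4931 and 1209 bases past the stop codon. Hist1h1c had 123 and 140 in MSC and 389 and 378 in TAC, the smallest change of the class (log2 fold change 1.54 ± 0.055 SE, limma adjusted p = 2.55e-17). Between Hist1h1a and Hist1h1c the fold changes thus differed by much more than their standard errors, although that difference was not tested. Hist1h1t, the testis linker histone, had values of 0.560 and 0.029 in MSC and 0.197 and 1.06 in TAC, overlapping between the groups and too low to be tested.

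Genes of H2A, the class whose protein pairs with H2B in the nucleosome, gave a ratio of 4.95. Their summed values were 143 and 141 in MSC and 689 and 719 in TAC. All 16 tested H2A genes rose, with a median log2 fold change of 2.23. Hist1h2af had values of 20.1 and 18.6 in MSC and 108 and 106 in TAC (log2 fold change 2.41 ± 0.092 SE, limma adjusted p = 9.94e-17). Hist1h2ac had 19.0 and 18.3 in MSC and 86.5 and 99.2 in TAC, and Hist2h2ac had 18.5 and 21.9 in MSC and 81.3 and 91.8 in TAC. In each of these genes the replicates lay close together and the groups far apart. Hist1h2ag, which had the largest H2A change (log2 fold change 2.94 ± 0.28 SE, limma adjusted p = 4.46e-09), had values of 0.712 and 2.58 in MSC and 21.8 and 14.8 in TAC. Its MSC replicates differed by a larger factor than its TAC replicates, so the size of its change is less certain than its direction. Hist3h2a, from the Hist3 cluster, had the smallest H2A change (log2 fold change 1.31 ± 0.27 SE, limma adjusted p = 2.45e-04), with values of 1.60 and 2.27 in MSC and 6.78 and 5.76 in TAC.

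The other Hist2 genes of this class also rose. Hist2h2aa2 had values of 21.3 and 16.1 in MSC and 50.9 and 55.6 in TAC (log2 fold change 1.47 ± 0.12 SE, limma adjusted p = 2.69e-10). Hist2h2aa1, whose coding sequence like that of Hist2h2aa2 offered no 75-base stretch of its own, had 3.63 and 1.90 in MSC and 18.2 and 17.8 in TAC. Hist2h2ab had 2.26 and 2.24 in MSC and 9.07 and 9.99 in TAC. The pseudogene Hist1h2al, annotated on chromosome 13 apart from the cluster, had 0.347 and 1.31 in MSC and 6.23 and 8.11 in TAC. It reached the mean of 1 needed for testing only through its TAC values, so its test is not given. All these genes kept TAC above MSC in both replicates. Of the untested members, Hist1h2ad had no read in either MSC library and 80.5 and 40.3 estimated reads in TAC, and Hist1h2ah had no read in MSC and 15.6 and 4.30 in TAC.

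Class H2B gave a ratio of 4.74 and held the only tested histone gene that did not rise. The summed H2B values were 133 and 146 in MSC and 633 and 687 in TAC, and 14 of 15 tested genes rose, with a median log2 fold change of 2.02 over the 15. Hist1h2bj had values of 15.6 and 14.5 in MSC and 77.9 and 92.1 in TAC (log2 fold change 2.42 ± 0.11 SE, limma adjusted p = 1.71e-15). Hist1h2bk had 14.7 and 13.9 in MSC and 82.0 and 85.3 in TAC. Hist2h2bb, of the Hist2 cluster, had 12.4 and 10.6 in MSC and 74.2 and 77.5 in TAC, the largest H2B change (log2 fold change 2.62 ± 0.11 SE, limma adjusted p = 1.08e-15). The 3 genes had TAC values several times their MSC values in both replicates. Hist1h2bc, without a stem-loop match, had 19.0 and 26.4 in MSC and 60.1 and 70.4 in TAC, the smallest change among the H2B genes called (log2 fold change 1.5 ± 0.12 SE, limma adjusted p = 2.00e-10). Hist1h2bm had 5.01 and 4.32 in MSC and 23.3 and 26.2 in TAC.

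Hist2h2be was the exception. This gene, whose annotated transcript runs 2192 bases past the stop codon, had values of 1.39 and 2.52 in MSC and of 2.15 and 0.887 in TAC. The groups overlapped, with a log2 difference between them of -0.25 ± 0.33 SE (limma adjusted p = 0.567). Its neighbour on the opposite strand, Hist2h2ac, starts 238 bases away and rose by 2.05 on the log2 scale. The untested H2B genes were all low in replicates 1 and 2, with values of 0.212 and 0.840 in MSC and 0.620 and 0.623 in TAC for Hist3h2ba, and 0.027 and 0.104 in MSC and 0.743 and 0.490 in TAC for Hist1h2bq. The pseudogene Hist3h2bb-ps had at most 10.7 estimated reads in any library.

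All 11 H3 genes, which encode the core histone paired with H4, were tested and rose. Their summed values were 147 and 148 in MSC and 688 and 702 in TAC, a ratio of 4.71, and the median log2 fold change was 2.16. Hist1h3b had values of 30.6 and 28.4 in MSC and 159 and 160 in TAC (log2 fold change 2.40 ± 0.078 SE, limma adjusted p = 3.95e-18). Hist2h3b had 35.8 and 37.5 in MSC and 151 and 152 in TAC (log2 fold change 2.02 ± 0.074 SE, limma adjusted p = 4.34e-17). Both TAC libraries gave nearly the same value for each of these genes, far above MSC. Hist1h3i had 19.7 and 15.8 in MSC and 62.2 and 69.8 in TAC, and Hist2h3c2 had 8.16 and 8.49 in MSC and 47.3 and 49.8 in TAC. The smallest change was that of Hist1h3g, with 5.95 and 4.38 in MSC and 19.96 and 19.4 in TAC (log2 fold change 1.76 ± 0.19 SE, limma adjusted p = 2.54e-08). The largest was that of Hist1h3h, with 0.259 and 7.59 in MSC and 23.6 and 26.8 in TAC (log2 fold change 2.99 ± 0.45 SE, limma adjusted p = 5.00e-06). Its MSC replicates lay far apart, and the log2 fold change was 1.61 without MSC replicate 1 and 4.38 without MSC replicate 2. Without limma's variance trend Hist1h3h and Hist1h2ae were no longer called, with adjusted p of 0.0632 and 0.0614.

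All 13 H4 genes were tested and rose, by a median of 1.83 on the log2 scale. Their summed values were 120 and 128 in MSC and 487 and 511 in TAC, a ratio of 4.03. Hist1h4d had values of 23.8 and 30.0 in MSC and 109 and 114 in TAC (log2 fold change 2.02 ± 0.096 SE, limma adjusted p = 6.59e-15). Hist1h4k had 13.6 and 16.8 in MSC and 68.5 and 82.4 in TAC, and Hist1h4h had 17.9 and 20.3 in MSC and 68.4 and 72.4 in TAC. All 3 kept a clear gap between the groups. Hist1h4n had the largest H4 difference, from 0.433 and 0.786 in MSC to 9.14 and 6.79 in TAC, a log2 difference of 2.47. It too was tested only because its TAC values were high. Hist1h4j had the smallest (log2 fold change 1.31 ± 0.27 SE, limma adjusted p = 2.29e-04), from 1.85 and 3.64 in MSC to 7.36 and 8.71 in TAC. Hist1h4i had 2.20 and 1.41 in MSC and 6.23 and 7.72 in TAC. The changes of the members outside the Hist1 cluster lay below the class median, with 8.05 and 4.81 in MSC and 16.6 and 19.7 in TAC for Hist2h4 (log2 fold change 1.40 ± 0.20 SE, limma adjusted p = 3.05e-06), and 6.10 and 7.66 in MSC and 20.5 and 20.1 in TAC for Hist4h4 (log2 fold change 1.44 ± 0.17 SE, limma adjusted p = 1.74e-07).

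**Figure D2:**
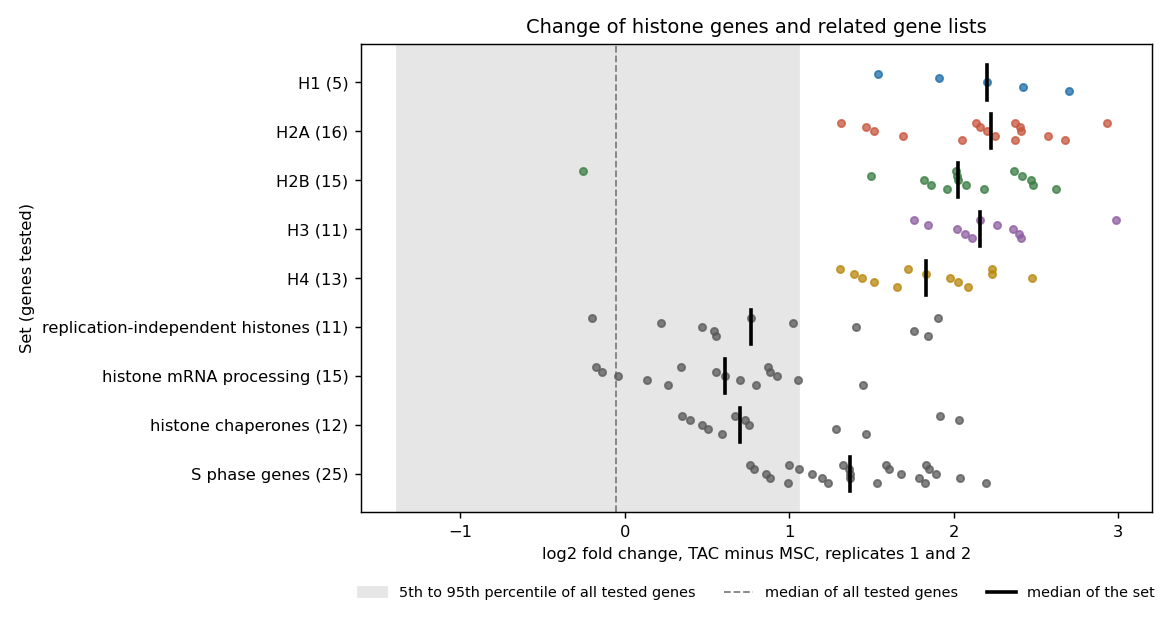
Log2 fold change (TAC minus MSC, replicates 1 and 2) of each tested gene, in rows for the 5 histone classes and 4 related gene lists; a point is a gene, black bars are medians of a row, the grey band spans the 5th to 95th percentile of all tested genes and the dashed line is their median. The class medians lie between 1.83 and 2.23, right of the band, and Hist2h2be in the H2B row is the only point of the 5 class rows inside it.

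By the cluster number in the symbol, 49 of 49 tested Hist1 genes rose (median log2 fold change 2.16) and 8 of 9 Hist2 genes rose (median 2.02). The 49 include Hist1h2al, which lies apart from the Hist1 cluster. The single tested Hist3 gene changed by 1.31 and the single Hist4 gene by 1.44, fewer than a comparison between clusters would need. The table held 12 pairs of an H2A and an H2B gene that start back to back, 172 to 301 bases apart. Both partners were tested in 8 pairs and both rose in 7. The remaining pair was that of Hist2h2ac and Hist2h2be. In the pair of Hist1h2ag and Hist1h2bj, 269 bases apart, the log2 fold changes were 2.94 and 2.42, and in that of Hist1h2ac and Hist1h2bc, 274 bases apart, 2.25 and 1.5. Promoters were at hand for 54 of the 60 tested genes, Hist2h2be not among them. With and without each motif all of the 54 rose, with a median log2 fold change of 2.22 for the 10 tested genes with the octamer and 2.08 for the 44 without.

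Within a class the genes are so alike that reads can be shared between them. Of 75-base stretches of coding sequence, the read length used, a median of 91.2% per gene occurred in no other gene for H1, 35.7% for H4, 30.5% for H2B, 23.4% for H3 and 11.8% for H2A. The coding sequences of the 11 H3 genes were all 411 bases long, and the nearest relative was 98.8% identical at the median. Of the genes with the largest or smallest change of a class, Hist1h2ag, Hist3h2a, Hist2h2bb and Hist1h4n had no stretch of their own. The same held for Hist2h3b and Hist2h3c2, among others. How shared reads were assigned is not stated in the sources used here, so the split between near-identical genes is uncertain. Few members had whole estimated reads, 8 and 10 of 62 with reads in MSC and 10 and 14 of 66 in TAC replicates 1 and 2. Values of alike genes can thus be linked, and counts of genes are not counts of independent measurements. The class sums avoid the split within a class, but stretches are also shared with genes outside them, such as H2afx. Of the 14 tested members with at least 50% of stretches of their own, 13 rose and the median log2 fold change was 2.09, against 2.10 over all 60. The exception was again Hist2h2be, whose coding sequence was entirely distinct. Hist4h4 and Hist2h4 were entirely distinct too, as were Hist1h1a and Hist1h1b, and all 4 rose. In addition 22 members overlap another annotated gene, mostly predicted transcripts on the opposite strand beside H2A genes, and since strand use is not stated their reads cannot be told apart. They include all 18 H2A genes. Leaving the 22 out gave a ratio of summed TAC to MSC values of 4.21 over the other 44 genes, which hold no H2A gene.

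**Figure D3:**
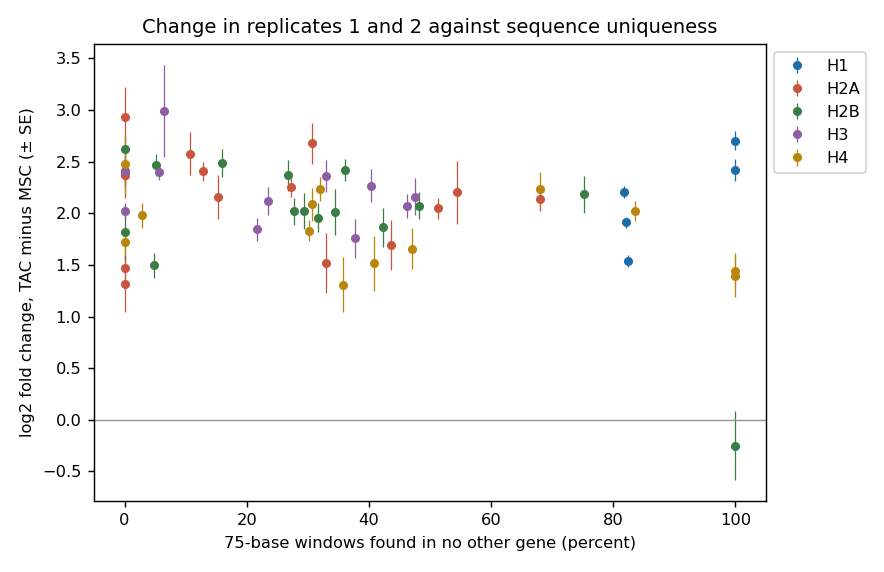
Log2 fold change (TAC minus MSC, replicates 1 and 2, with its standard error as bars) against the percent of 75-base coding stretches found in no other gene; a point is 1 of the 60 tested histone genes, coloured by class. Genes with few and with many distinct stretches both lie mostly between 1.31 and 2.99, and the single point below 0, at 100 percent, is Hist2h2be.

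The replication-independent histone genes had a lower median change, and this difference was not tested. Of 11 replication-independent histone genes, 10 rose in replicates 1 and 2, and the median log2 fold change was 0.77 against 2.10 for the 60 replication-dependent genes. H2afz, an H2A variant placed at promoters, had values of 16.9 and 14.0 in MSC and 59.7 and 61.0 in TAC (log2 fold change 1.91 ± 0.11 SE, limma adjusted p = 6.08e-13). H2afx, the variant phosphorylated at DNA breaks, rose by 1.85 on the log2 scale, and Cenpa, the centromere histone, by 1.76. Some 75-base coding stretches of H2A members such as Hist1h2ab also occur in H2afx, so its reads can be shared with theirs. H3f3a, which encodes H3.3, had 49.5 and 47.2 in MSC and 123 and 137 in TAC. H2afj, at 11.5 and 12.9 in MSC and 9.72 and 11.2 in TAC, was not called (limma adjusted p = 0.372). The groups of the first 4 genes lay far apart, whereas the TAC values of H2afj lay just below its MSC values.

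Genes that make, carry or use histone mRNA and protein moved the same way in part. Of 15 genes for histone mRNA transcription and 3′ processing, 9 rose and none fell (median 0.61). Slbp had values of 19.3 and 13.2 in MSC and 34.0 and 34.3 in TAC (log2 fold change 1.05 ± 0.14 SE, limma adjusted p = 1.27e-06), and Snrpd3, an Sm protein of small nuclear ribonucleoproteins, had the largest change of the list at 1.45. Lsm10, a subunit of the U7 small nuclear ribonucleoprotein, had the lowest at -0.17 and was not called (limma adjusted p = 0.668). Npat, the coactivator of histone gene transcription, had 21.6 and 13.4 in MSC and 20.8 and 20.4 in TAC and was not called (limma adjusted p = 0.204). All 12 histone chaperone genes were called higher (median 0.70), Asf1b being tested only through its TAC values, from 0.35 for the import factor Ipo4 to 2.04 for Chaf1b, a subunit of the chromatin assembly factor that places H3 and H4 on new DNA. All 25 S phase genes rose (median 1.37), from 0.77 for the polymerase subunit Pola1 to 2.20 for Mcm5, a subunit of the replicative helicase. The class medians of the replication-dependent genes, 1.83 to 2.23, lay above the medians of these lists, and that difference was not tested.

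Markers of other cell types were also among the called genes of replicates 1 and 2, where 21.4% of all genes were called higher in TAC and 26% lower. All 5 smooth muscle and pericyte markers were lower in TAC in replicates 1 and 2, with sums of 1228 and 1219 RPM (estimated reads scaled to a library total of 1000000) in MSC and 179 and 173 in TAC, and in replicate 3 they summed to 3498 in MSC and 173 in TAC. Of 7 dental epithelium markers 4 rose and 1 fell, with sums of 6260.2 and 6140.2 RPM in MSC and 5829.7 and 5879.7 in TAC replicates 1 and 2, against 753 and 5228 in replicate 3. Of 5 macrophage markers 4 fell and none rose, of 4 endothelial markers 1 rose and 2 fell, of 3 tested Schwann cell markers 2 fell, with Sox10 tested only through its MSC values, and of 4 odontoblast markers 2 rose and 2 fell. In MSC replicate 3 the epithelial markers Cdh1 and Epcam and the odontoblast markers Ibsp and Dmp1 had no read. Their part in the histone result was not tested.

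**Figure D4:**
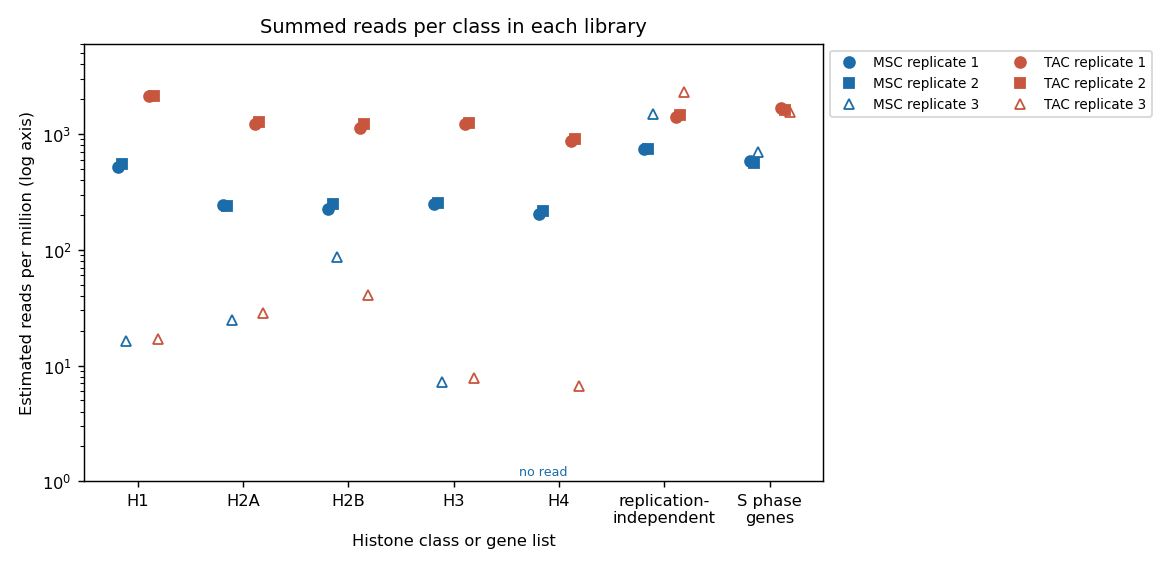
Estimated reads per library total of 1000000 (RPM, log axis) summed over each histone class, the replication-independent histones and the S phase genes, with a symbol for each library; blue is MSC, red is TAC, and open triangles are replicate 3. In replicates 1 and 2 each class lies higher in TAC, while in replicate 3 the class sums are 86.1 RPM or less and those of the replication-independent histones are not.

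In replicate 3 most of the clustered histone genes had no read. Of the 66 genes, 61 had no read in MSC replicate 3 and 45 had none in TAC replicate 3, against 4 in each of the other MSC libraries and 0 in the other TAC libraries. Histone reads came to 1442 and 1505 RPM in MSC and 6605 and 6741 in TAC for the first 2 replicates, but 134 and 101 for replicate 3, although the latter libraries were the deepest. Of the 46 histone genes with at least 100 reads in each of the 4 libraries of replicates 1 and 2, 43 had no read in MSC replicate 3 and 33 had none in TAC replicate 3. Among all 11175 genes with that many reads, 12.1% and 3.87% had none. A count of 0 allows up to 0.0502 RPM in MSC replicate 3 and 0.0277 in TAC replicate 3, counting error only.

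As RPM every class sum was lower in replicate 3 than in replicates 1 and 2 of its group, but not evenly. In estimated reads H2B had 5146 in MSC replicate 3, against 4963 and 5009 in MSC replicates 1 and 2. H4 genes summed to no read in MSC replicate 3 and 6.63 RPM in TAC replicate 3, H3 genes to 7.21 and 7.73, H1 genes to 16.3 and 17, H2A genes to 24.8 and 28.7, and H2B genes to 86.1 and 40.9. Between the 2 libraries, therefore, the H2B sum was higher in MSC, the H1, H2A and H3 sums were close, and H4 had reads in TAC only, those of Hist1h4i. H2B made up 64.0% of histone reads in MSC replicate 3 and 40.5% in TAC replicate 3, against 15.7% to 17.9% in the other 4 libraries. Hist2h2be alone held 53.5% of the histone reads of MSC replicate 3. The sums of the replication-independent histones were of another order, with 750 and 736 RPM in MSC and 1415 and 1449 in TAC replicates 1 and 2, and 1500 and 2290 in replicate 3, although 1 of them, H2afj, had no read in MSC replicate 3. The 19 genes listed as other RNAs without a poly(A) tail, among them Rn7sk, Rpph1 and Malat1, summed to 55301 and 54348 RPM in MSC and 29732 and 31490 in TAC for replicates 1 and 2 and to 1587 and 699 for replicate 3. Neat1, a member of the same list, went the other way, with values of 138 and 142 in MSC and 44.8 and 43.4 in TAC replicates 1 and 2, and of 269.7 and 78.9 in replicate 3. Whether Neat1 RNA lacked a tail in these samples was not measured. Terc, the telomerase RNA, had the highest log2 difference (TAC minus MSC) of the list in replicates 1 and 2, with values of 0.693 and 0.261 in MSC and 2.28 and 1.70 in TAC, through which alone it was tested. The part of these RNAs in the histone result was not tested.

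The histone genes that kept reads in replicate 3 were few and can be named. With at least 10 estimated reads as the limit, 17 genes qualified in TAC replicate 3 and 5 in MSC replicate 3, all 5 being among the 17. Just inside the limit was Hist1h1e, with 10.8 reads in TAC replicate 3, and just outside it Hist1h2br, with 6.76. The 17 comprised 4 H1 genes (Hist1h1a, Hist1h1c, Hist1h1d and Hist1h1e), 4 H2A genes (Hist1h2al, Hist2h2aa1, Hist2h2aa2 and Hist3h2a), 6 H2B genes (Hist1h2bc, Hist1h2bk, Hist1h2bm, Hist1h2bq, Hist2h2be and Hist3h2ba), the H3 genes Hist1h3d and Hist2h3c2, and the H4 gene Hist1h4i. Their annotated transcripts were longer, at a median of 1020 bases against 485 for the other 49, with at least 200 bases after the stop codon in 11 of 16 against 13 of 48. A stem-loop match was present in 12 of the 17 and in 33 of the other 49. Transcripts annotated to end at the stop codon could hold no match, so these shares do not compare the genes themselves. With no match but at least 200 bases after the stop codon were Hist1h2bc (742), Hist1h2bq (1608) and Hist2h2be (2192) of the 17. Outside the 17 this held for Hist1h2br (1803). A poly(A) signal in the last 40 bases was annotated in 5 of the 17 and in 9 of the 49. For the 5 genes seen in both libraries, all had at least 200 bases after the stop codon. These counts describe annotation, and were made after the reads had been seen.

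**Figure D5:**
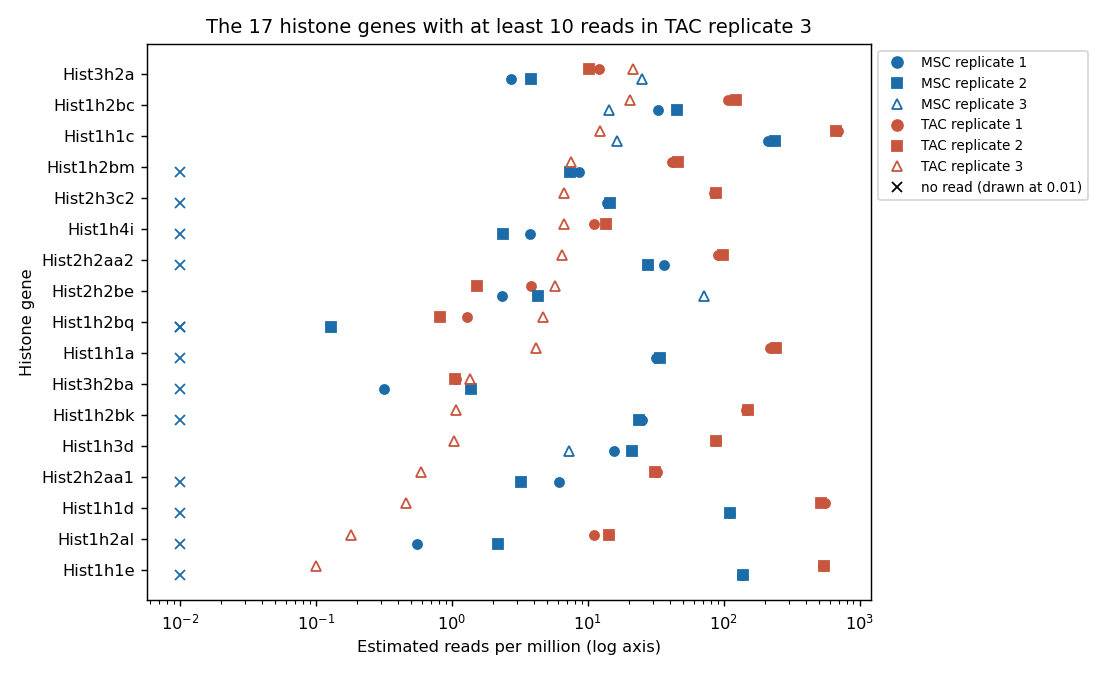
RPM (log axis) of the 17 histone genes with at least 10 reads in TAC replicate 3, with a symbol for each library; blue is MSC, red is TAC, open triangles are replicate 3 and crosses mark no read. In 12 of the 17 rows the blue cross shows that MSC replicate 3 had no read, and in the row of Hist2h2be its open blue triangle lies farthest right.

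For the 5 genes with reads in both replicate 3 libraries, the order of the groups differed from gene to gene. Hist1h1c had a value of 6.50 in MSC and 5.05 in TAC replicate 3, slightly lower in TAC, whereas in replicates 1 and 2 TAC was 3.15-fold and 2.71-fold higher. Hist1h3d, an H3 gene, had 2.88 and 0.425 in replicate 3, the opposite order to its 9.11 and 12.4 in MSC and 48.9 and 50.1 in TAC replicates 1 and 2. Hist3h2a had 9.88 and 8.83, close to each other and above its values in replicates 1 and 2. Hist1h2bc alone kept TAC above MSC, with 5.66 and 8.43. Hist2h2be had 28.6 in MSC replicate 3, far above its other values, and 2.35 in TAC replicate 3. No test is possible within a single pair of libraries.

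With all 6 samples in the fit, no histone gene was called. Of 15391 genes tested, 0.422% were called, 0.039% as higher in TAC and 0.383% as lower. Of the 60 histone genes in that fit, 0 passed the adjusted threshold in limma and 1, Hist1h4i, had an unadjusted p under 0.05 with a higher level in TAC, as 5.42% of all genes did. Hist1h4i was the only 1 of these 60 genes whose 3 TAC values all exceeded its 3 MSC values, whereas 12.3% of all genes tested did so. Its values were 6.23, 7.72 and 2.72 in TAC, and 2.20, 1.41 and no read in MSC. For Hist1h4i limma gave a log2 difference of 1.64 ± 0.66 SE (adjusted p = 0.391). The median log2 fold change of the 60 genes was 1.43 against 0.026 over all genes, and it depended on single libraries. It was 0.31 without MSC replicate 3, 0.56 and 0.52 without TAC replicates 1 and 2, and 3.26 without TAC replicate 3. With the replicate number as a block 0 histone genes passed and the smallest adjusted p was 0.0571. An unadjusted p under 0.05 was reached by 20 of the 60, and by 20.4% of all genes. With replicate 3 against replicates 1 and 2 as a batch term 5 passed, namely Hist1h1a, Hist1h2bm, Hist1h4i, Hist2h2aa2 and Hist2h3c2, all higher in TAC, that is 5 of 60 where 5.22% of all genes were called higher. There an unadjusted p under 0.05 was reached by 50 of the 60, and by 29.6% of all genes. Each of the 5 had reads in TAC replicate 3 and none in MSC replicate 3. The related lists lost their calls as well, with 0 called of the 11 replication-independent histones, 15 mRNA processing genes, 12 chaperones and 25 S phase genes in limma, and medians of 1.00, 0.27, 1.13 and 1.26 on the log2 scale. Unadjusted p was under 0.05 for 6, 4, 5 and 16 of them, against 1824 of all 15391 genes (11.9%).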

How the data were processed

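RNA was sequenced from 3 MSC and 3 TAC samples. Per the labels and the methods of the study, reads were made with CASAVA 1.8.2, aligned to mm10 with TopHat2 2.0.8 and normalized in Partek as RPKM. The deposited values are a signal that the authors scaled per library and did not divide by gene length: many genes of any length share each library's lowest value, and low values are mostly multiples of it. They were therefore treated as (estimated reads + 1) times a step, with 66.3% to 74.7% of values up to 50 reads whole within 0.05. The planned test assumed normalized values, and the same log-scale test was kept. No count model was used. Values compare libraries, not genes. The counting tool, its treatment of strand and of reads with several positions are not given in the sources used here.

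Log2(value + 1) was fitted with limma 3.58.1 in R 4.3.3 (empirical Bayes trend, two-sided, TAC minus MSC) for genes whose mean value in the fitted samples reached 1, first in replicates 1 and 2 and then in all 6 samples. P-values were Benjamini-Hochberg adjusted over all genes tested, with 0.05 as the threshold. The pseudocount of 1 understates changes of low genes. A gene has no read under 0.5 estimated reads. The fits were tested on simulated data. The members, the comparison lists, written from general knowledge, and the split by replicate were chosen with earlier results of these data known. Named were all H1 genes, in each other class the 3 with the highest mean value and those with the largest and smallest change, tested members of the Hist2, Hist3 and Hist4 clusters, members with at least 10 reads in either replicate 3 library, and from each comparison list, cell type markers aside, the members with the highest and lowest change; further genes were chosen after their values were seen.

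Samples with the same number deviated together from their group means (correlations across genes of 0.477, 0.465 and 0.517), but the crossed combination of MSC 1 and TAC 2 had 0.462, and within replicates 1 and 2 alone the correlation was 0.0033. The methods name sample pairs but not what joins them. MSC replicates 1 and 2 differed by more than counting noise (chi-square per degree of freedom 10.5, and 8.59 for TAC), so they were not taken for repeat deposits of 1 library, and the labels give them as separate samples. Sequences were read from GENCODE M21 transcripts and the RefSeq promoter table. Of the members, 45 had the same coordinates in the table and in GENCODE M21 once the deposited end was lowered by 1. Hist1h2aa, Hist1h2aj, Hist1h2ba and Hist2h3c1 are not analysed here. A marker of the dental epithelium list is not reported here.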

Additional observations from a re-analysis of the deposited data

Results flagged for a closer look

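In 3 histone genes the order of the groups in replicate 3 was opposite to that in replicates 1 and 2. The ratio of TAC to MSC in replicate 3 was 0.778 for Hist1h1c, 0.148 for Hist1h3d and 0.894 for Hist3h2a. In replicates 1 and 2 the ratios were 3.15 and 2.71 for Hist1h1c, 5.36 and 4.03 for Hist1h3d, and 4.23 and 2.54 for Hist3h2a. Hist3h2a has no 75-base coding stretch of its own and overlaps Trim17 on the same strand. Replicate 3 has 1 library per group, and the difference was not tested.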

How the results depend on the processing

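In replicates 1 and 2 the count of histone genes called higher in TAC was 59 under both other pseudocounts, both other scalings, the replicate block, each left-out sample and a fit of all 6 samples with separate terms for replicate 3. Leaving out a sample leaves a lone library assumed to vary like the other group, which alone gives the spread, so this count says little of stability. It was 57 without limma's trend and 49 of 49 with a mean of at least 10. Without the filter it was also 59, but Hist1h2ae and Hist1h3h (adjusted p of 0.0728 and 0.0690) had dropped out, and Hist1h2ad and Hist1h2bq had come in. Hist2h2be turned to 0.00055 with quantile normalization and ran from -0.62 to 0.12 when a sample was left out. All genes called numbered 4882 with a mean of at least 10, where fewer genes were tested, against 7433.

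With all 6 samples, 0 histone genes were called except for 5 with replicate 3 as a batch term, the replicate block included. All genes called, 65 in that fit, numbered 43 with a pseudocount of 0.5, 114 with quantile normalization, 29 without the trend, 229 with the replicate block and 1814 with the batch term. They ranged from 0 to 280 when a sample was left out, with 280 without MSC replicate 3, 20 without TAC replicate 3, and 0 without any of the other 4 samples, where 1357, 1362, 1038 and 1029 genes had an unadjusted p under 0.05. Hist1h1c ran from -0.46 to 2.92, the former without MSC replicate 3. The cause was not tested. Alternatives on distinct sequence were chosen after seeing the data.

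The ratio of TAC to MSC in replicates 1 and 2 stayed above 3 in each class and alternative that could be run. As RPM it was 4.53 over all classes, 4.93 for H2B, 4.90 for H3 and 4.19 for H4. Without members that overlap another gene, which removes all of H2A, it was 4.21 over the other classes, 4.62 for H2B and 4.90 for H3. With members of at least 50% distinct stretches, which removes all of H3, it was 3.94 over the other classes, 4.54 for H2A, 3.77 for H2B and 3.93 for H4. Leaving out a sample gave 4.26 to 4.46 over all classes, 4.53 to 4.97 for H2B, 4.67 to 4.76 for H3 and 3.91 to 4.17 for H4. With 2 samples per group the spread is known poorly, and in replicate 3 a count of 0 still allows up to 0.0502 RPM in MSC and 0.0277 RPM in TAC.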
